A study of Zea mays with 56 samples.

Results

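Leaves of maize plants with 4 B chromosomes were set against leaves of plants with none. The 4B group and the Control group had 4 plants each, and RNA-seq and small RNA-seq libraries were made from each plant. They make up 16 of the 56 samples and 8 of the 28 plants of the series, and were chosen by the B chromosome number in their labels. All plants were of the inbred W22, grown in a greenhouse and 45 days old. The controls carried no B chromosome, and no other allele or treatment is named for either group. The remaining 20 plants carried 1, 2, 3, 5, 6 or 7 B chromosomes (1B to 7B, "other carriers"). Plants sharing a B number are labelled as biological replicates, without a word on shared parents. Control plants have label codes starting with D and all carriers codes starting with EB, so this code series and the presence of B chromosomes cannot be told apart in any comparison with Control.

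B chromosomes are extra chromosomes that some maize plants carry beside the regular set, the A chromosomes. They are not needed for growth, do not pair with the A chromosomes, and are passed on at more than the Mendelian rate because they fail to separate in a pollen mitosis and then fertilize the egg preferentially. Most of the B sequence is repetitive and related to that of the A chromosomes, but it also holds genes. MicroRNAs (miRNAs) are small RNAs that guide the cleavage or repression of matching mRNAs, and their seed, bases 2 to 8, takes part in target recognition. In plants, miR398 and miR408 act on mRNAs of copper proteins and accumulate when copper is short, miR395 acts on sulfate uptake and assimilation, miR169 on NF-YA transcription factors, miR166 on leaf polarity factors, miR396 on growth-regulating factors and miR171 on GRAS-domain factors. These roles are best known from Arabidopsis and rice.

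The sequences that carry the miRNA result are the most abundant RNAs of the 16 loci that passed the test between 4B and Control. They are written 5′ to 3′ as in the deposited table, with the seed in capitals and the position of the locus as deposited; the genome build is not given in the sources used here. The deposited table names no family. Family names were assigned by recognizing the major RNA as that of a known plant miRNA, and 5 of the 16 loci were left unnamed. The loci higher in 4B were these:
miR398, chr2:174592244-174592383 and chr7:39565488-39565658, plus strand, same sequence at both: uGUGUUCUcaggucgcccccg
miR408, chr8:39846385-39846534, minus strand: cUGCACUGccucuucccuggc
miR528-3p, chr9:159738713-159738849, minus strand: cCUGUGCCugccuccuccauu
miR171, chr9:101060209-101060336, minus strand: uUGAGCCGcgccaauaucucu
miR167-3p, chr5:4442863-4442963, plus strand: aUCAUGCUguggcagccucacu
miR169, chr2:198873328-198873516, plus strand: uAGCCAAGgaugagcugccug
miR166, chr1:228027270-228027463, minus strand: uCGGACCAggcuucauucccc

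The loci lower in 4B were these:
miR395, chr2:6331792-6331979, minus strand: uGAAGUGUuugggggaacuc
miR396, chr2:1896663-1896866, minus strand: uCCACAGGcuuucuugaacug
miR1432, chr7:164803817-164803912, minus strand: uCAGGAGAgaugacaccgacg
unnamed, chr3:104370709-104370997, plus strand: gCAUCCAUucuuggcuaagug
unnamed, chr6:30531975-30532177, minus strand: cCCGCCGGcgagcgcuuuccu
unnamed, chr1:74812400-74812499, minus strand: uUGGGAGCcacaaaacugaag
unnamed, chr3:183912804-183912931, minus strand: aUUGGAGGggauugaggaggcu
unnamed, chr7:8179136-8179359, plus strand: aCCCGUUGagacguaauagag

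Genes were deposited as FPKM (fragments scaled to gene length and library size), and transposable elements (TEs) and miRNA loci as raw read counts. In the 8 plants, totals ran from 1136734 to 1492262 TE counts and from 55575 to 111964 miRNA counts, and 20607 to 21044 genes reached 0.5 FPKM. Both groups separated along the first principal component of genes, TEs and miRNA loci, which held 56.9%, 65.3% and 45.7% of the variance over these 8 plants. For genes, the lowest correlation of log2 levels between 4B plants was 0.965 and the highest between a 4B and a Control plant 0.926. For TEs these values were 0.926 and 0.825, and for miRNA loci 0.973 and 0.964. The lowest correlation of miRNA loci between Control plants was 0.938, under the highest between the groups. Gene reads per spike-in read were 0.21 ± 0.20 (log2, SD, n = 4) in 4B and -0.31 ± 0.37 in Control, a difference of 0.51 that did not pass an exact two-sided permutation test (p = 0.0857; the smallest p that 4 against 4 plants allow is 0.0286). Read counts cannot tell fewer cells of a type from less RNA per cell.

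Gene expression differed between 4B and Control leaves across the whole genome and in both directions. Of 24515 genes tested with limma, 9598 passed an adjusted p of 0.05 (39.2%), 4897 higher in 4B (20%) and 4701 lower (19.2%). The median size of the called changes was 0.76 on the log2(FPKM + 0.5) scale, with quartiles of 0.51 and 1.14. By more than 1 on this scale, 1748 genes rose (7.13%) and 1305 fell (5.32%); by more than 2, 478 rose (1.95%) and 218 fell (0.889%). In 4491 genes (18.3%) every 4B plant lay above every Control plant, and in 4138 (16.9%) every 4B plant lay below. When libraries were scaled to their spike-in totals instead, 6330 genes were called higher and 957 lower, and the median of all genes moved by 0.37 on the log2 scale. The near-even split of rises and falls thus holds for levels relative to other mRNA, not for levels per spike-in molecule. The authors' deposited table for 4B lists 7062 significant genes, 3618 higher and 3444 lower.

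The called genes were spread over all 10 A chromosomes. Among 24159 tested A-chromosome genes, 4707 were higher and 4686 lower. The share called ran from 34.1% on chromosome 10 to 40.6% on chromosome 4. In 181 windows of 10 Mb with at least 50 tested genes, the median share was 39.0% and the range 23.1% to 58.1%. The highest share was in the window from 150 to 160 Mb of chromosome 3, with 75 of 129 genes called. The share also moved with the level of a gene: it was 16.8% under 1 FPKM, 35.6% from 1 to 10, 54.5% from 10 to 100 and 69.1% at 100 FPKM or more. The part of measurement precision in this was not tested.

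**Figure D1:**
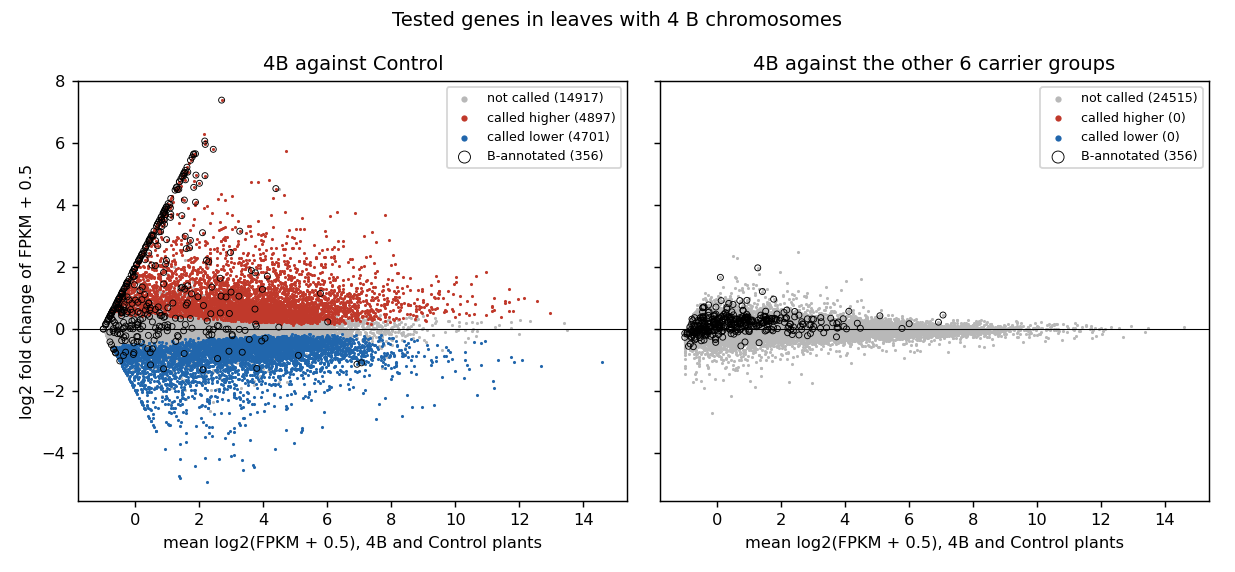
Log2 fold change (y axis) over mean log2 level (x axis, both on FPKM + 0.5) of the 24515 tested genes, in 4B against Control (left) and in 4B against the mean of the other 6 carrier groups (right); red and blue mark genes called higher and lower, and open circles B-annotated genes. On the left 9598 genes are called on both sides of 0, and on the right 0 are called.

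The deposited files pair the gene identifiers with no names or functions, so the genes with the largest changes are given by identifier and place only. Among A-chromosome genes with means of at least 0.5 FPKM in both groups and no overlap between the plants, the steepest rise was that of Zm00004b020529 on chromosome 4 (17410129 to 17410907). It was at 2.13, 3.05, 3.84 and 3.42 FPKM in the controls and at 200.2, 220.3, 190.5 and 151 FPKM in the 4B plants. The groups lay far apart, with a log2 fold change of 5.74 ± 0.24 (SE, limma adjusted p = 9.22e-16). Zm00004b028833 on chromosome 6 (42887412 to 42889106) came next. Its level was 3.52, 2.80, 3.09 and 2.32 FPKM in the controls and 85.0, 112, 101 and 86.5 FPKM in 4B (log2 fold change 4.82 ± 0.15, limma adjusted p = 4.59e-18). The lowest 4B plant stood well above the highest control for both genes.

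Under the same floor on both means, the steepest A-chromosome fall was that of Zm00004b036731 on chromosome 7 (150726177 to 150728516). It was at 39.5, 42.3, 62.6 and 60.4 FPKM in the controls and at 2.34, 2.51, 1.68 and 0.62 FPKM in 4B. All 4B plants lay below all controls (log2 fold change -4.56 ± 0.39, limma adjusted p = 1.14e-09). Zm00004b017222 on chromosome 3 (116923404 to 116927350) was at 44.0, 60.4, 63.0 and 82.2 FPKM in the controls and at 1.32, 3.46, 3.01 and 1.80 FPKM in 4B (log2 fold change -4.47 ± 0.25, limma adjusted p = 3.01e-13). In every other carrier plant this gene lay between 1.19 and 2.97 FPKM, overlapping the range of the 4B plants.

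A smaller number of A-chromosome genes were listed at 0 in every plant of either group. Of 40306 listed A-chromosome genes, 34 were listed at 0 in all controls and at 1 FPKM or more in all 4B plants. Of the 34, 8 lie on chromosome 4, which holds 4465 of the 40306 genes, and each other chromosome holds 1 to 4. At 1 FPKM or more in every carrier were 11 of the 34. The one with the highest level, on chromosome 4 (23526708 to 23527696), was at 32.2, 47.0, 48.2 and 32.0 FPKM in the 4B plants. Across the 34, the median ratio of the 4B mean to the 1B mean was 1.79 (quartiles 1.06 and 3.78), and it was above 2 in 16 of them. The 34 were chosen with the 4B plants and without the 1B plants, which favours higher ratios. In the other direction, 15 of the 40306 genes were at 1 FPKM or more in all controls and listed at 0 in all 4B plants. Of these 15, 4 were listed at 0 in every carrier. The highest of the 15 in the controls, on chromosome 9 (116492576 to 116492771), was at 18.6, 9.94, 6.62 and 22.2 FPKM there. Its log2 fold change of -4.74 had a large SE of 1.21 (limma adjusted p = 0.00279). The gene is short, so few fragments may stand behind these FPKM values, and their number is not known. This gene was not absent from all carriers: the other carrier plants ran from 0 to 11.9 FPKM.

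**Figure D2:**
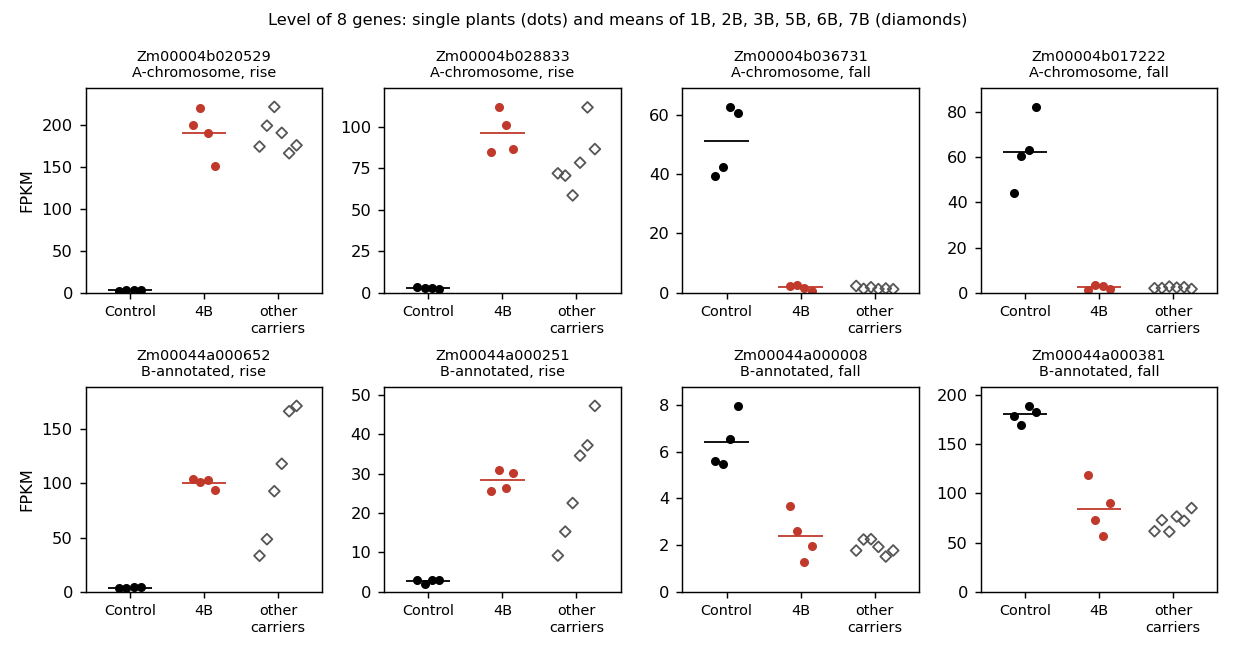
FPKM (y axis, from 0) of 4 A-chromosome genes (top) and 4 B-annotated genes (bottom) in the Control plants (black dots), the 4B plants (red dots) and as means of the 1B, 2B, 3B, 5B, 6B and 7B groups, from left to right (diamonds); lines are group means. For the A-chromosome genes the 4B mean lies within the range of the other carrier means, and for both B-annotated rises the 5B, 6B and 7B means lie above it.

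Genes annotated on the B chromosome (identifiers starting with Zm00044a) mostly rose. Of 758 listed, 356 passed the filter on low values, and 190 of these were higher in 4B and 15 lower, with a median log2 fold change of 0.85 against 0.00 over all tested genes. A gene present only on the B chromosome passes the filter only through carriers, so this count partly follows from the filter. Rises were called for 70 of 109 tested genes in the stretch from 0 to 25 Mb, for 40 of 71 from 25 to 50 Mb, for 25 of 70 from 50 to 80 Mb, for 42 of 83 beyond 80 Mb and for 13 of 23 on scaffolds. The 92 B-annotated genes at 1 FPKM or more in the Control mean, which had reads assigned without any B chromosome, gave 29 rises (31.5%) and 10 falls (10.9%), beside 20% and 19.2% over all genes. With spike-in scaling they gave 33 rises and 1 fall. How the authors treated reads that match both A and B copies is not given in the sources used here, and its part in these values was not tested.

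Among B-annotated genes with means of at least 0.5 FPKM in both groups, Zm00044a000652 rose most. It was at 3.26, 3.35, 4.47 and 4.51 FPKM in the controls and at 104, 102, 103 and 94.4 FPKM in 4B (log2 fold change 4.54 ± 0.16, limma adjusted p = 3.60e-17). The 4B plants differed little from each other and lay far above the controls. Zm00044a000251 was at 3.10, 1.98, 3.03 and 2.88 FPKM in the controls and at 25.7, 31.0, 26.4 and 30.1 FPKM in 4B (3.16 ± 0.15, limma adjusted p = 2.30e-14). The largest falls under the same floor were smaller. Zm00044a000008 was at 5.61, 5.45, 6.54 and 7.95 FPKM in the controls and at 3.66, 2.62, 1.29 and 1.94 FPKM in 4B (-1.31 ± 0.23, limma adjusted p = 4.90e-05). Zm00044a000381 was at 179, 169.7, 189 and 183 FPKM in the controls and at 119, 72.5, 56.6 and 90.5 FPKM in 4B (-1.14 ± 0.21, limma adjusted p = 0.000120). Its groups did not overlap, but the call was lost with spike-in scaling (-0.67, limma adjusted p = 0.112).

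Reads from B chromosomes were followed in 94 B-only genes, which are B-annotated, have a Control mean under 0.1 FPKM and average at least 1 FPKM over the carriers other than 4B. The rule used the Control values, so their absence from the controls is no finding. Their summed level was 896, 822, 786 and 769 FPKM in the 4B plants (mean 818 ± 56.2, SD, n = 4) and 1.30 ± 0.37 in the controls. The 4B plants lay above all 3B plants (552 to 605 FPKM) and below both 5B plants (902 and 1047 FPKM). This order follows the B numbers in the labels. The sum was 3.77 times that of the 1B plants (217 ± 19.8, n = 4), for a copy ratio of 4, and the exact two-sided permutation test of 4B against 1B gave the smallest p it allows, 0.0286. Against 2B the ratio of sums was 1.99 (copy ratio 2), against 3B 1.42 (1.33), against 5B 0.840 (0.8), against 6B 0.759 (0.667) and against 7B 0.631 (0.571). Gene by gene, 4B was 3.96 times 1B in the median (quartiles 3.22 and 4.70, 93 genes with a 1B value), and 44 genes were above 4.

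The B-only genes varied among the 4B plants with a median coefficient of variation of 24.7%. It was under 20% in 40 genes and over 50% in 13. Their 4B means ran from 0.67 to 84.2 FPKM with a median of 5.25, and 25 genes reached 10 FPKM. The highest, at 21804671 to 21806536 on the B chromosome, was at 69.4, 95.2, 87.7 and 84.5 FPKM and made up 10.3% of the sum; the top 10 made up 39.3%. The 37 B-only genes in the stretch from 0 to 25 Mb gave 49.3% of the sum. In replicate 4, 2 B-only genes were listed at 0: a gene on a scaffold (112561 to 115575) was at 27.4, 39.3 and 34.3 FPKM in replicates 1 to 3, and a gene at 79405460 to 79405733 of the B chromosome was at 4.31, 2.06 and 8.08 FPKM. Both calls against Control were near the threshold (limma adjusted p = 0.0332 and 0.0466). FPKM values do not give the number of fragments behind them, which may be small in these genes. Whether the values of 0 come from sampling few fragments was not tested. No other B-only gene was listed at 0 in a 4B plant. All 94 together made up 0.114% of the FPKM sum of a 4B leaf.

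**Figure D3:**
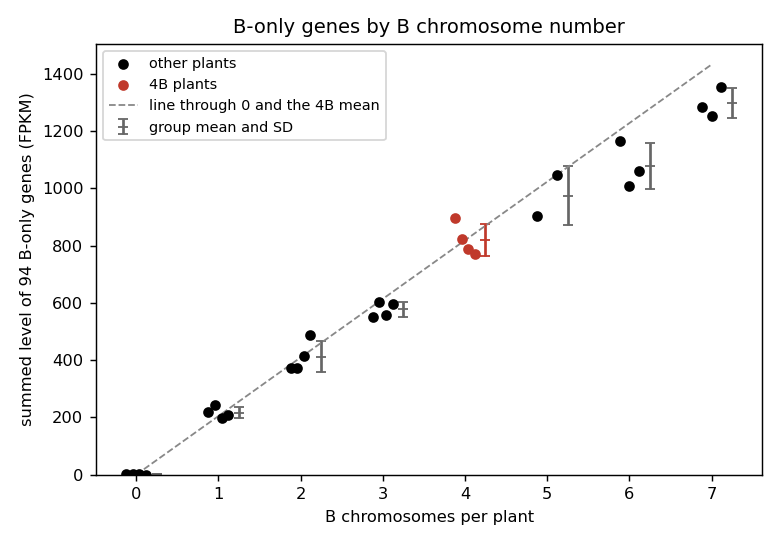
Summed level of the 94 B-only genes (FPKM, y axis from 0) in each plant over its number of B chromosomes (x axis), with group means and SD; 4B plants are red and the dashed line runs from 0 through the 4B mean of 818. The 4B plants lie between the 3B and the 5B plants, and the 6B and 7B means of 1078 and 1297 lie under the line.

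TEs are mobile sequences that fill most of the maize genome: Gypsy (code RLG) and Copia (RLC) elements copy themselves through RNA with long terminal repeats (LTRs), RLX elements are LTR elements not placed in either, Helitrons (DHH) spread by rolling circles, CACTA (DTC) elements cut and paste, and L1 elements (RIL) copy through RNA without LTRs. Of 5359 TEs tested with edgeR's quasi-likelihood test, 2143 passed an adjusted p of 0.05 (40%), 1154 higher in 4B (21.5%) and 989 lower (18.5%). The median size of called changes was 1.28 on the log2 scale. Scaling to spike-in totals gave 1867 higher and 266 lower, with the median of all TEs at 0.65 against 0.07. For 4B, 1339 TEs had an FDR under 0.05 in the authors' deposited table, 964 higher and 375 lower.

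TEs with a B tag in their identifier (zmB) gave 128 rises and 29 falls among 241 tested of 2292 listed, and the 5118 others gave 1026 and 960. A TE present only on the B chromosome passes the filter on low counts only through carriers, so the B-tagged count partly follows from the filter. As a share of all TE counts, B-tagged TEs took 6.21% ± 0.45 (SD, n = 4) in 4B and 8.41% ± 1.60 in Control. This difference did not pass (exact two-sided permutation p = 0.0571). Plants without a B chromosome thus also had counts on B-tagged TEs. RLX10711zmB00001 alone took 6.11% to 9.12% in the controls and 4.28% to 5.13% in 4B. Without the tag, Helitrons gave 490 rises and 422 falls of 2575, Gypsy elements 234 and 168 of 828, and Copia elements 115 and 98 of 532. Unclassified LTR elements leaned the other way, with 139 rises and 243 falls of 811 and a median log2 fold change of -0.17; with spike-in scaling they gave 221 rises and 76 falls and a median of 0.42. CACTA elements gave 7 rises and 1 fall of 14, and L1 elements 5 rises and 0 falls of 12. Summed over each superfamily, reads per gene read were higher in 4B by 1.55 for L1 and 0.86 for CACTA (log2), and differed by -0.62 for unclassified LTR elements. These sums include B-tagged TEs; without them the differences were 1.54, 0.86 and -0.48. The superfamily DTX, of which 1 TE was tested and that one B-tagged, was higher by 2.14 and took 0.0015% of TE counts in 4B. In each of these 4 the groups did not overlap, which gives the smallest exact two-sided permutation p, 0.0286; adjusted over 13 superfamilies it was 0.0929, which does not pass. Total TE reads per gene read differed by -0.26 (log2, exact two-sided permutation p = 0.314).

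**Figure D4:**
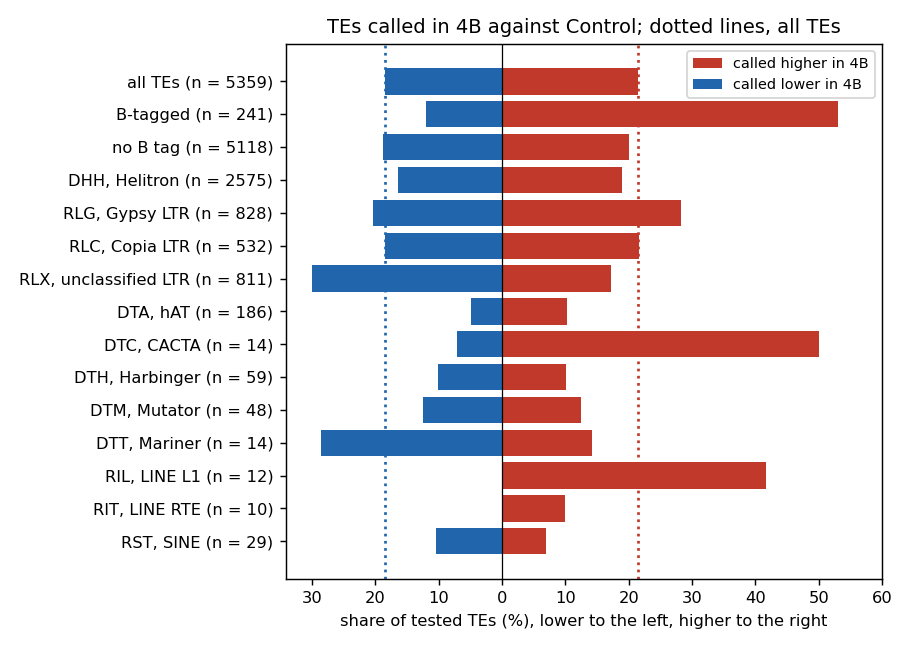
Share of tested TEs (%, x axis) called higher (red, to the right) and lower (blue, to the left) in 4B against Control, for all TEs, by B tag, and by superfamily among TEs without the tag; n is the number tested and dotted lines mark all TEs at 21.5% and 18.5%. B-tagged TEs and CACTA elements reach the highest shares called higher, and unclassified LTR elements the highest share called lower.

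Among TEs with means of at least 1 CPM (counts scaled to a common library size, TMM) in both groups and no overlap, the largest changes went from few reads to many, or back. Among B-tagged TEs, the Copia element RLC16809zmB00001 had 14, 15, 10 and 9 counts in the controls and 2204, 1230, 1289 and 2112 in 4B (log2 fold change 6.85 ± 0.27, edgeR adjusted p = 1.85e-18). The Helitron DHH00002zmB00064 had 4 counts over all controls and 1254 over the 4B plants (7.83 ± 0.35, edgeR adjusted p = 2.36e-17). In both, every 4B plant lay far above every control. The Gypsy element RLG16900zmB00001 fell despite its tag, from 86, 97, 57 and 49 counts in the controls to 11, 9, 4 and 4 in 4B (-3.64 ± 0.37, edgeR adjusted p = 2.38e-09). RLG00020zmB00059, also a Gypsy element, fell from 97 counts over all controls to 22 (-2.38 ± 0.49, edgeR adjusted p = 0.000231).

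Among TEs without the tag, the CACTA element DTC00060Zm00004b00002 had 8, 0, 1 and 0 counts in the controls and 662, 247, 301 and 375 in 4B (7.12 ± 0.40, edgeR adjusted p = 5.33e-15). Its mean of 282 CPM in 4B stood beside 79.2 in 1B. The Gypsy element RLG00007Zm00004b01341 had 7, 4, 1 and 2 counts in the controls and 323, 569, 696 and 284 in 4B (6.86 ± 0.67, edgeR adjusted p = 1.07e-09). The 4B plants were far above the controls in both. The Helitron DHH00002Zm00004b08114 was the most abundant of the steep falls, with 4677, 6855, 3441 and 4667 counts in the controls and 41, 26, 22 and 35 in 4B (-7.69 ± 0.33, edgeR adjusted p = 1.72e-17). It lay between 15.4 and 36.4 CPM in every other carrier plant, against 15.9 to 26.8 CPM in 4B and 2532 to 7348 CPM in the controls. A second Helitron of the same family, DHH00002Zm00004b05229, fell from 193 counts over the controls to 7 (-4.91 ± 0.42, edgeR adjusted p = 7.46e-11).

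Some TEs had reads in the 4B plants and none in the Control plants, or the reverse. The rule was 0 counts over either group, reads in every plant of the other and at least 1 CPM over its pooled plants. By this rule 56 of 2292 listed B-tagged TEs and 166 of 57955 others had reads in 4B and 0 counts in the controls. The B-tagged Gypsy element RLG00487zmB00001 had 0 control counts and 678 in 4B, which is at least 189-fold higher when Control is set to the 3 counts that a group total of 0 allows. The Copia element RLC14069Zm00004b00003, without the tag, had 368 counts in 4B and was at least 103-fold higher. Neither was particular to 4B. In the other carrier plants RLG00487zmB00001 ran from 27.7 to 241 CPM and RLC14069Zm00004b00003 from 5.64 to 117 CPM. In the other direction 1 B-tagged and 103 other TEs, of the same listed totals, were at 0 in all 4B plants. The Helitron DHH00002Zm00004b01751 had 117, 95, 106 and 69 counts in the controls and 0 in 4B, at least 154-fold lower. It was at 1.23 CPM or less in every other carrier plant. Of the 166 elements, 154 had reads in 1B, and 4B was 2.92 times 1B in the median (quartiles 1.61 and 5.17). For the B-tagged elements it was 3.58 (2.89 and 4.58). Both lists were chosen with the 4B plants and without the 1B plants, which favours higher ratios.

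Fewer miRNA loci passed the test, and the loci of the copper list were among the rises. Of 98 loci, 71 had enough reads, and 16 of them passed an adjusted p of 0.05 in edgeR's quasi-likelihood test (22.5%), 8 higher in 4B and 8 lower (11.3% each). This split depends on the scaling. The 98 loci together took 12.1% ± 0.90 (SD, n = 4) of all small RNA reads in 4B and 9.23% ± 1.51 in Control, with no overlap (exact two-sided permutation p = 0.0286, the smallest possible). Scaled to all small RNA reads instead of by TMM, 20 loci were called higher and 2 lower, and the median of all loci moved from -0.15 to 0.19. No called locus changed its direction with this scaling, but 6 of the 8 falls were no longer called, miR395 and miR1432 being the exceptions. For 4B, 18 loci had an FDR under 0.05 in the authors' deposited table, 17 higher and 1 lower.

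Levels below are CPM of the miRNA loci after TMM scaling. All 3 tested loci of the copper list (miR398 at both places and miR408; no locus of miR397 or of the main arm of miR528 was recognized) were higher in 4B. The miR398 locus on chromosome 7 was at 3696, 7209, 7053 and 4138 CPM in the controls and at 11638, 8869, 25882 and 15636 CPM in 4B. All 4B plants lay above all controls (log2 fold change 1.49 ± 0.31, edgeR adjusted p = 0.00136). The locus on chromosome 2 rose by 1.89 ± 0.44 (edgeR adjusted p = 0.00252); both have the same major RNA, so reads cannot be told apart between them. The miR408 locus was at 366, 965, 1556 and 659 CPM in the controls and at 2533, 1059, 5500 and 4357 CPM in 4B. Its groups overlapped, since replicate 2 of 4B lay under the highest control (1.96 ± 0.53, edgeR adjusted p = 0.00775).

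The miR528-3p locus, which gives the complementary strand of another copper miRNA, changed most. It was at 132, 93.4, 177 and 187 CPM in the controls and at 2135, 1285, 3948 and 1918 CPM in 4B (3.95 ± 0.54, edgeR adjusted p = 2.66e-06). These CPM rest on 13, 6, 10 and 19 control counts and on 166, 114, 290 and 151 counts in 4B. Replicate 3 of 4B was the highest plant at each of these 4 loci, and replicate 2 the lowest.

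Of 5 tested miR171 loci 1 rose in edgeR. It was at 335, 234, 247 and 147 CPM in the controls and at 939, 969, 1634 and 915 CPM in 4B, with no overlap (2.20 ± 0.28, edgeR adjusted p = 1.32e-06). Another miR171 locus, on chromosome 7, was lower in every 4B plant (103, 203, 163 and 165 CPM) than in every control (213, 343, 265 and 462 CPM), but missed the threshold in edgeR (-1.01 ± 0.40, edgeR adjusted p = 0.0682) and passed it in DESeq2 (adjusted p = 0.0464). The miR171 locus on chromosome 5 was called higher when scaled to all small RNA reads (0.72, edgeR adjusted p = 0.0457). The miR167-3p locus rose by 1.11 ± 0.33 (edgeR adjusted p = 0.0173), while 0 of 7 loci of the auxin list, which holds the main arm of miR167, were called. The miR169 locus of the nitrogen list rose by 0.62 ± 0.23 (edgeR adjusted p = 0.0469). The call was lost without Control replicate 4 (edgeR adjusted p = 0.0506) or 4B replicate 1 (0.0648) or 2 (0.0524), and with only the Control and 4B libraries in the fit (0.120).

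Of 8 miR166 loci, all with the same seed, 1 was called in edgeR. Their major RNAs have only 2 sequences. Reads cannot be told apart between loci that share one, so calls of these loci are not separate observations. DESeq2 called 5 of the 8 higher (0.29 to 0.38 on the log2 scale), and scaling to all small RNA reads 7 (0.41 to 0.67). The locus with a sequence of its own, on chromosome 4 (187156674 to 187156834), was at -0.16 (edgeR adjusted p = 0.601). It was not called in DESeq2 or with the other scaling either. The locus called in edgeR went from 3910, 3021, 3376 and 3480 CPM in the controls to 4282, 3741, 4820 and 4509 CPM in 4B, with overlap (0.33 ± 0.12, edgeR adjusted p = 0.0463). The call was lost without Control replicate 2 (edgeR adjusted p = 0.0622) or 3 (0.0686) or 4B replicate 3 (0.142). The 7 others had log2 fold changes from -0.16 to 0.29. With the miR396 fall, the leaf development list gave 1 rise and 1 fall of 13. The phase change list (miR156 and miR172, which time the shift from juvenile to adult leaves) gave 0 of 6, the phosphate list 0 of 2 and the silencing feedback list 0 of 1. Of 26 tested loci without a family, 5 fell and 0 rose in edgeR, beside 11.3% of all tested loci in each direction. DESeq2 gave 4 falls and 1 rise, and scaling to all small RNA reads 0 falls and 1 rise. The rise was the same locus in both, on chromosome 6 (87332945 to 87333124; DESeq2 adjusted p = 0.0324, 0.00474 with the other scaling).

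Among the falls, the miR395 locus was at 1239, 576, 1167 and 1012 CPM in the controls and at 450.1, 417, 218 and 457 CPM in 4B, with no overlap (-1.37 ± 0.32, edgeR adjusted p = 0.00252). The miR1432 locus was at 1290, 2585, 1768 and 2290 CPM in the controls and at 900.2, 868, 1089 and 826 CPM in 4B (-1.11 ± 0.24, edgeR adjusted p = 0.00136). The miR396 locus fell by 0.70 ± 0.17 on the log2 scale (edgeR adjusted p = 0.00442), which was lost without Control replicate 4 (-0.34, 0.210) and without 4B replicate 2 (0.0552) or 4 (0.0618). The unnamed locus at 104 Mb of chromosome 3 was the most abundant of the falls, with 4.46% of miRNA counts in Control and 2.09% in 4B. It was at 31796, 42151, 38732 and 65919.9 CPM in the controls and at 21965, 19518, 24521 and 21415 CPM in 4B (-1.03 ± 0.33, edgeR adjusted p = 0.0237). Without Control replicate 4, its highest plant, the difference was -0.63 (edgeR adjusted p = 0.184), and the call was also lost without 4B replicate 1, 2 or 4 (0.0576 to 0.0672).

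**Figure D5:**
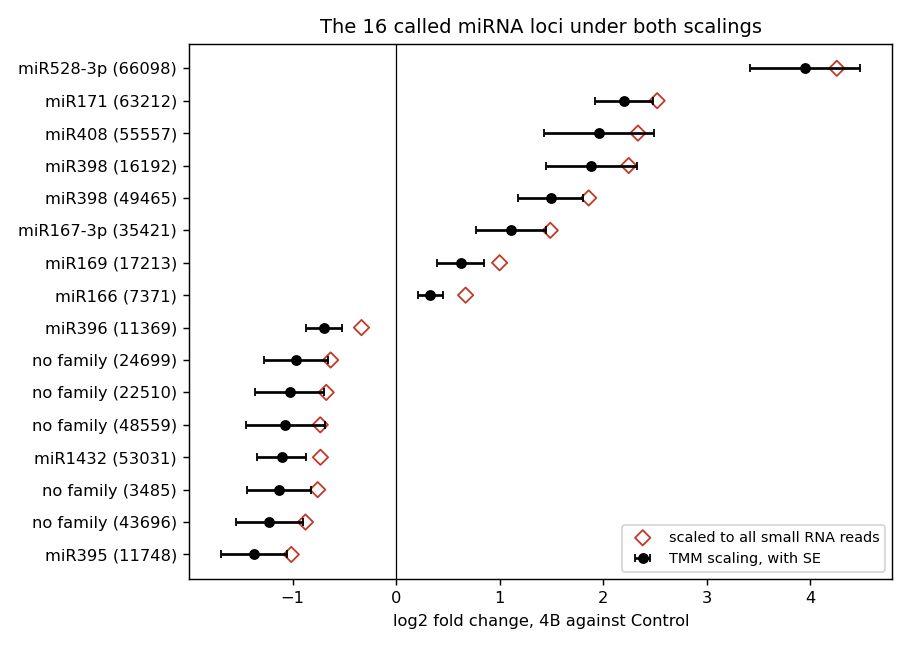
Log2 fold change, 4B against Control (x axis), of the 16 called miRNA loci (y axis, family and locus number), with TMM scaling (black, bars are SE) and when scaled to all small RNA reads (red diamonds). The second scaling moves each locus to the right, and each stays on its side of 0.

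The deposited miRNA table places 7 loci in a listed gene. Of these 7 host genes 2 rose and 2 fell, beside 20% and 19.2% of all genes. The largest of the 4 changes was that of Zm00004b016316, at 3.19, 2.86, 4.30 and 2.38 FPKM in the controls and at 14.4, 16.1, 15.1 and 12.8 FPKM in 4B (log2 fold change 2.06, limma adjusted p = 1.94e-09). Its locus, without a family, was not called (-0.06 ± 0.27, edgeR adjusted p = 0.901). The host of a miR156 locus was at 10.3, 10.2, 10.7 and 9.75 FPKM in the controls and at 14.6, 18.6, 15.4 and 15.3 FPKM in 4B (log2 fold change 0.62, limma adjusted p = 0.000443). The small RNA count of that locus did not pass the test (-0.08 ± 0.19, edgeR adjusted p = 0.775).

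The 4B plants were last set against the other carriers, whose 6 groups average 4 copies. The groups were averaged on the log2 scale, where a level proportional to copy number leaves a difference of 0.28. No gene passed in limma (0%, with 1451 of 24515 at an unadjusted p under 0.05, 5.92%), no TE in edgeR (0%, 463 of 5359, 8.64%; DESeq2 also 0), and no miRNA locus in edgeR (0%, 7 of 71, 9.86%; DESeq2 also 0). With no filter on low counts, 66 TEs passed. The genes called higher against Control had a median log2 difference of 0.07 from the other carriers, and those called lower of -0.08, against 0.79 and -0.73 from Control; they had been chosen with the 4B plants, which favours larger values in 4B. Per gene, the standard error of the difference from the other carriers was 0.15 in the median over all tested genes, so a difference of that size in a gene was not detectable at this depth and number of plants. The 94 B-only genes had a median of 0.29 against the other carriers, beside the 0.28 that a proportional level leaves. Of the 94, 38 (40.4%) were at an unadjusted p under 0.05 in limma, beside 5.92% of all tested genes. Against the mean of 3B and 5B, 1 gene passed (0.00408%; 1580 at an unadjusted p under 0.05, 6.45%). It was the B-annotated Zm00044a000266, listed at 0 in all 4B, 3B and Control plants and at a mean of 1.06 FPKM in 5B, so its difference lies in the 5B plants.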

How the data were processed

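RNA-seq and small RNA-seq of leaves of 28 plants were used as deposited. The submitters' processing notes name Cuffdiff, edgeR, Bowtie2, TopHat2 and cutadapt 1.16 but give no roles; build and annotation are not given in the sources used here. The authors deposited genes as FPKM values, TEs, spike-ins and miRNA loci as raw read counts, and miRNA loci also as RPM, which gave the small RNA depth. Their deposited comparisons hold log2 fold changes, p-values and FDR, per the file headers. The assay of the TE table is not named and was taken as RNA-seq.

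Genes were tested with limma 3.58.1 (trend) on log2(FPKM + 0.5), for genes at 0.5 FPKM in at least 2 libraries; fold changes of low genes are understated. For TE and miRNA counts, edgeR 4.0.16 (quasi-likelihood test, TMM, filterByExpr) was run in R 4.3.3, with DESeq2 1.42.0 as an alternative. All 28 libraries entered 1 fit with 8 groups. The SE of an edgeR value is its size over the square root of F. Adjusted p-values are Benjamini-Hochberg over all features tested, called under 0.05. Single values were tested by exact two-sided permutation. The procedures were tested on simulated data: the gene fit recovered 175 of 200 genes changed by 1 on the log2 scale, with 6 false calls among 23567 tested. With larger changes put in, the TE fit recovered 166 of 194 with 11 false calls, and the miRNA fit 16 of 16 with 0. Far fewer genes and TEs were changed there than were called in these data, so these rates need not carry over. Relative RNA depth came from the steps of low FPKM values; the absolute gene depth is unknown. The p-values measure the spread between these plants.

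Features were named by rule: among called features with no overlap between the groups and both means at 0.5 FPKM or 1 CPM at the least, the 2 largest rises and 2 largest falls, A and B separately, plus the highest feature at 0 in either group; every called miRNA locus. The miRNA host genes and the loci described without a call in edgeR were chosen after their values were seen. The members, lists and rules were chosen with earlier results of these data known. Of 41064 gene identifiers 0 matched the RefSeq gene table, so leaf markers and gene lists by name were not analysed here. miRNA families were recognized for 47 of 98 loci, with no annotation table to check them against. Replicate numbers did not pair the plants.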

Additional observations from a re-analysis of the deposited data

Results flagged for a closer look

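In 85 groups of 4 plants, the most extreme plant was compared with the spread of the others by Dixon's ratio (its gap to the nearest plant over the range, against the 95% critical value for 4); chance gives about 1 in 20, and 4 were found. For the CACTA element DTC00060Zm00004b00002, Control replicate 1 had 5.34 CPM and the other controls at most 0.74 (ratio 0.862). For the Helitron DHH00002Zm00004b05229, Control replicate 3 had 47.8 CPM and the others 39.0 to 40.1 (0.877). For the miR395 locus, 4B replicate 3 had 218 CPM and the others 417 to 457 (0.832). For the miR171 locus that rose, 4B replicate 3 had 1634 CPM and the others 915 to 969 (0.924). Without any of these plants the loci and elements kept their calls.

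Zm00044a000266 differed between 4B and the mean of 3B and 5B by -0.81 on the log2(FPKM + 0.5) scale in limma (adjusted p = 0.0191). It was listed at 0 in all 4B plants.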

How the results depend on the processing

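For genes against Control, 7287 to 9644 were called over the settings tried, and for TEs 1535 to 2143, the lowest with only the Control and 4B libraries in the fit. Leaving out any of the 8 plants gave 8624 to 9129 genes, 1878 to 2053 TEs and 13 to 19 miRNA loci. The replicate block gave 9510 genes, 2054 TEs and 15 miRNA loci; the numbers do not pair the plants (correlations of gene deviations from -0.06 to 0.02, 1 of 4 plants closest to its own number), and the block ended the miR169 call (edgeR adjusted p = 0.0505) and that of Zm00044a000266 (0 genes against 3B and 5B). That gene was also lost (0 genes) with a pseudocount of 0.1, a filter at 1 FPKM in at least 4 libraries, spike-in scaling and without any single 4B plant; the cause was not tested. Against the other carriers, TEs without a filter on low counts gave 66; every other setting for genes, TEs and miRNA loci gave 0. Without the TE that took 3.57% to 25.1% of TE counts in single plants, RLG00021Zm00004b00084, 1087 TEs rose and 1015 fell (chosen after seeing the data). For miRNA loci, the split of rises and falls was 11 to 7 with DESeq2's size factors, 13 to 8 with DESeq2 and 12 to 7 with no filter.

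Of 39 named features 29 kept their call and direction in every setting run and 0 reversed. Leaving out plants ended calls of miR396, miR169, miR166 and the 5 unnamed loci in at least 1 case. For B-only genes, the difference from Control in summed level was 768 to 833 FPKM and the ratio to 1B 3.65 to 3.84 with a plant left out, where 3 against 4 plants allow no exact p under 0.0571. With genes listed at 0 in all controls (64 genes) the difference was 533 FPKM. Gene reads per spike-in read differed by 0.41 to 0.69 (log2) with a plant left out. TE reads per gene read differed by -0.37 to -0.10 with a plant left out and by -0.03 without the 10 most abundant TEs. The least deep miRNA library limits loci of few counts most.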
